A study of Mus musculus with 4 samples.

Results

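The 8 genes Dusp1, Dusp2, Dusp4, Dusp5, Dusp6, Dusp7, Dusp10 and Dusp16, which encode dual-specificity phosphatases of the mitogen-activated protein (MAP) kinases, were followed across the cell types of mouse brain vascular-associated cells (BVACs). They were chosen by gene symbol and make up 8 of the 31053 genes in the count tables, with all 8 found in every library. BVACs came from brains of adult male wild-type C57BL/6 mice, were dissociated with warm collagenase II and were captured with magnetic beads that bind CD31, a surface protein of endothelial cells (EC). Mice in chronic social defeat (CSD) lived for 14 days beside an aggressive CD-1 mouse with a short daily encounter, and home cage (HC) mice lived for 14 days beside a CD-1 mouse that they could never reach. Each group had 2 libraries, named CSD 1, CSD 2, HC 1 and HC 2, and each library pooled 4 mice, so that the spread between libraries is a spread between pools. Mice were screened in a social interaction test before they were assigned to the groups at random, and both groups passed through the same dissociation at body temperature.

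MAP kinases carry signals from growth factors, stress and inflammation, and their 3 best known branches end in ERK, JNK and p38. A dual-specificity phosphatase removes the activating phosphate from both the threonine and the tyrosine of the kinase and so switches it off. Dusp1, Dusp2, Dusp4 and Dusp5 encode the nuclear, inducible enzymes, Dusp6 and Dusp7 the cytoplasmic enzymes that prefer ERK, and Dusp10 and Dusp16 the enzymes that act mainly on JNK and p38. Several of these genes are themselves switched on by the kinases they oppose, and Dusp1 is also known as a gene induced by glucocorticoids.

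On the mouse genome build GRCm38 the genes lie at chr17:26505590-26562128 (Dusp1, minus strand), chr2:127336159-127338376 (Dusp2, plus), chr8:34807297-34819894 (Dusp4, plus), chr19:53529109-53542431 (Dusp5, plus), chr10:99263231-99267489 (Dusp6, plus), chr9:106368632-106375724 (Dusp7, plus), chr1:184013302-184075636 (Dusp10, plus) and chr6:134715468-134792625 (Dusp16, minus). Annotated genes on the opposite strand overlap Dusp1 (Ergic1 among them), Dusp5, Dusp10 and Dusp16. The pseudogene AC122252.4 and the intronic gene AC122252.1 overlap Dusp1 on its own strand. No annotated gene overlaps Dusp2, Dusp4, Dusp6 or Dusp7. RefSeq promoter windows of GRCm38.p6, which run from 250 bases before to 50 bases after the transcription start, were matched for 7 of the 8 genes, with Dusp4 unmatched. The Dusp1 and Dusp10 windows lie inside the gene spans given above, so that their RefSeq starts are not at the edge of those spans.

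The stretches from 200 to 51 bases before the start are shown for Dusp1, Dusp2, Dusp5 and Dusp6, the 4 genes whose levels followed the immediate-early genes within EC as described further on. Capitals mark letters that matched a searched motif on either strand.
Dusp1, chr17:26508523-26508672, minus strand: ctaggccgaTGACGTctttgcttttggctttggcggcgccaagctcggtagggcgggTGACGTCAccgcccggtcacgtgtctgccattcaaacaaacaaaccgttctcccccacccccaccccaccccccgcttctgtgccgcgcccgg
Dusp2, chr2:127335959-127336108, plus strand: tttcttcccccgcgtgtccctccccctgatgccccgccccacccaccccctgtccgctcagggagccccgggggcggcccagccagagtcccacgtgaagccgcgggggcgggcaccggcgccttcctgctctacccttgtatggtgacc
Dusp5, chr19:53528945-53529094, plus strand: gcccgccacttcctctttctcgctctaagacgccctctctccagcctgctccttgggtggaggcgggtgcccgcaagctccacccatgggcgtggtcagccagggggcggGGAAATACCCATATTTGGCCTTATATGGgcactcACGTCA
Dusp6, chr10:99263031-99263180, plus strand: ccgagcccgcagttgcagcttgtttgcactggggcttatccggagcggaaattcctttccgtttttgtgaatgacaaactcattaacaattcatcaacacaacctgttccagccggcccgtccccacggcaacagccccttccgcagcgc

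Among the 7 promoters Dusp1 alone held the cyclic AMP response element (CRE) TGACGTCA, at position -143, against 1.79% of all 32851 promoter windows of 300 bases. The CRE core TGACGT was found in Dusp1 (from positions -191, -143 and -141, the last of them lying within the full element on the opposite strand) and in Dusp5 (from -56), against 7.51% of all windows. Dusp5 also held the CArG box of serum response factor at -82 and -72 (1.63% of windows) and the NF-kB motif at -90 on the minus strand (1.63%), which overlaps the first CArG box. None of the 7 windows held the AP-1 motif TGANTCA (7.81% of windows), the glucocorticoid response element (0.475%) or the TATA box TATAAA (13.6%). These matches are letters in a window, and binding was not measured.

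The libraries held 27297599 to 30361474 unique molecular identifiers (UMIs), and 14415 cells had at least 500 UMIs, at least 250 genes and at most 25% mitochondrial UMIs. CSD 2 stood apart, with 32.6% of its UMIs in such cells against 51.8% to 56.8% in the other libraries and with the highest median mitochondrial share (8.16% against 6.13% to 7.02%). Cells were assigned to a class by marker genes that include no Dusp gene, which placed 88.2% to 90.8% of the cells of a library, and 0 to 9 barcodes were shared between any pair of libraries. EC (918 to 1750 cells per library) and microglia (646 to 1656), the resident macrophages of the brain, were the largest classes, and pericytes, arterial smooth muscle cells (SMC), astrocytes, choroid plexus cells, ependymal cells and T cells were also tested. The astrocyte class was led by Fabp7 and Npy, which the authors list for a cluster of Npy+ cells apart from their astrocytes. CSD 2 held 156 of the 383 cells of this class, and the part of Npy+ cells in its levels was not tested. The T cell class (20 to 48 cells per library) was led by genes shared with cytotoxic and natural killer cells such as Ccl5, Nkg7 and Gzma. Levels are given as CPM, the UMIs of a gene per 1000000 UMIs of its class in a library, and the level in barcodes with at most 100 UMIs is given beside them as the level of free RNA.

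Across the 8 tested classes, Dusp1 and Dusp6 were measured in every class, whereas Dusp2 and Dusp5 were highest in T cells and then microglia, and Dusp7 in EC and then microglia. Of 30657 Dusp1 UMIs in gated cells, 43.6% came from microglia, 24.7% from EC and 20.3% from choroid plexus cells. Microglia held 84.7% of the 2207 UMIs of Dusp2. EC and microglia together held most UMIs of Dusp6 (39.3% and 48.0% of 3589), Dusp7 (49.0% and 40.5% of 1045) and Dusp16 (23.8% and 54.9% of 1204). Dusp4, with 57 UMIs, and Dusp10, with 199, were too low for most tests.

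The gated classes with fewer than 10 cells in some library were not tested, and their levels rest on few cells. Border-associated macrophages, with 6 to 45 cells per library, had 1947, 4503, 2056 and 2104 CPM of Dusp1, above every library of the tested classes. B cells, with 1 to 26 cells, had 1524, 0, 424.5 and 275 CPM of Dusp2 and 635, 0, 121 and 125 CPM of Dusp5, from 30 and 12 UMIs. Oligodendrocytes, with 2 to 12 cells, had 138, 151, 89.2 and 0 CPM of Dusp10 from 14 UMIs, and 92.0, 90.9, 0 and 87.5 CPM of Dusp7 from 9 UMIs. The B cell and oligodendrocyte values ranged from 0 in 1 library to levels above the highest mean of the tested classes, and the orders given next hold for the 8 tested classes only.

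**Figure D1:**
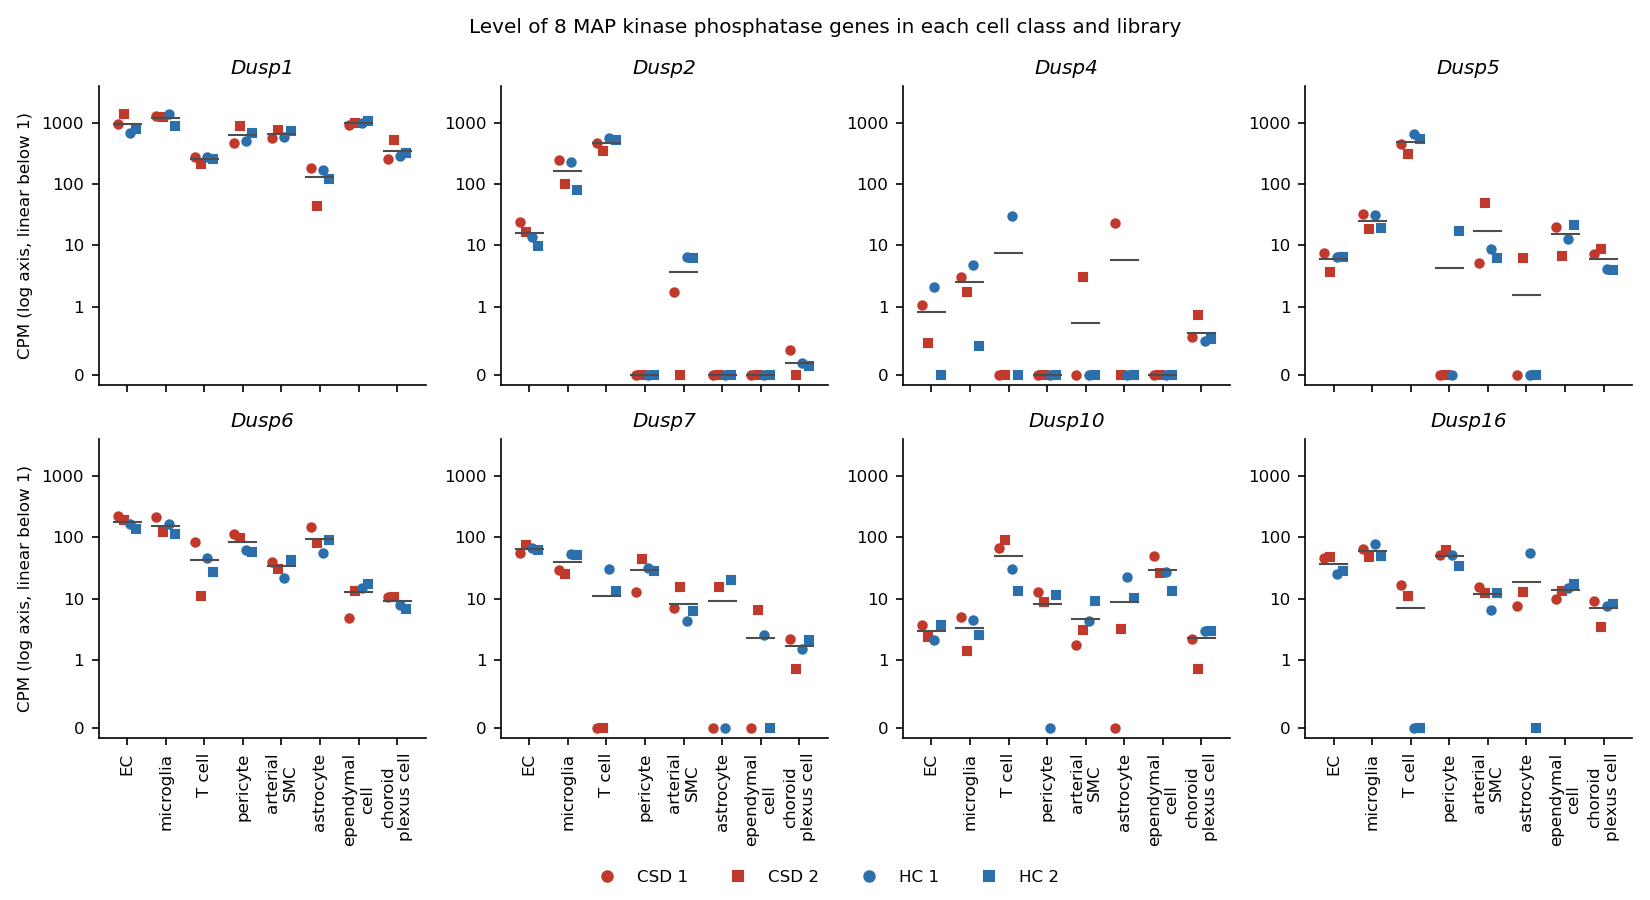
Level of each of the 8 phosphatase genes (CPM, log axis that is linear below 1) in the 8 tested cell classes, with 1 point per library (red, CSD; blue, HC). Among these classes Dusp2 and Dusp5 were highest in T cells (means of 478 and 495 CPM) and Dusp1 in microglia (1208 CPM), while Dusp4 stayed near 0.

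Dusp1, an inducible nuclear phosphatase of all 3 MAP kinase branches, was highest in microglia among the tested classes, with 1287, 1257, 1396 and 891 CPM in CSD 1, CSD 2, HC 1 and HC 2. Ependymal cells had 914, 986, 982 and 1055 CPM, and EC had 956, 1417, 686 and 781 CPM. The ranges of these 3 classes overlapped, as did those of arterial SMC (mean 664 ± 100.2 CPM, SD, n = 4) and pericytes (643 ± 193 CPM). Choroid plexus cells (350.2 ± 119.9 CPM), T cells (254 ± 29.3 CPM) and astrocytes (129.7 ± 62.6 CPM) came last, and only between T cells and astrocytes did neighbouring ranges fail to overlap. Free RNA carried 255 ± 19.3 CPM of Dusp1, so that the T cell mean was no higher than that of barcodes without a cell and the astrocyte mean lay below it.

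Dusp2, an inducible nuclear phosphatase known from activated lymphocytes, had 477, 346, 566 and 525 CPM in T cells. In microglia it had 250.5, 100.9, 232 and 81.4 CPM, and in EC 24.5, 16.8, 13.9 and 9.62 CPM. T cells, microglia, EC and arterial SMC followed each other with no overlap between neighbours. In microglia CSD 1 and HC 1 both lay above CSD 2 and HC 2, so that the groups overlapped, and the same order was seen in free RNA (23.5, 5.99, 20.2 and 5.69 CPM). The EC level was above that of free RNA in CSD 1, CSD 2 and HC 2, least so in CSD 1, and below it in HC 1, while choroid plexus cells had 0 to 0.367 CPM and pericytes, astrocytes and ependymal cells were at 0 in all 4 libraries.

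Dusp5, an inducible nuclear phosphatase selective for ERK, followed the same order at its top. T cells had 460.0, 312, 657 and 552 CPM, far above microglia with 32.0, 18.4, 31.7 and 19.3 CPM. No other tested class exceeded a mean of 17.3 CPM, and EC had 7.46, 3.73, 6.40 and 6.41 CPM against 3.69 ± 2.15 CPM in free RNA. In arterial SMC, CSD 2 alone was high, with 49.0 CPM against 5.21 to 8.76 CPM in the other 3 libraries. Dusp4, the remaining nuclear member, reached at most 4.81 CPM in microglia and 2.13 CPM in EC, and 28 of its 57 UMIs were in microglia.

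Dusp6, a cytoplasmic phosphatase that acts on ERK and is itself an ERK target, was highest in EC, with 228, 193, 168.5 and 137 CPM. Microglia had 213, 124, 165 and 113 CPM, and the 2 ranges overlapped, although EC were above microglia in each of the 4 libraries. Astrocytes (94.0 ± 37.6 CPM) and pericytes (83.5 ± 28.0 CPM) followed, and ependymal cells (12.7 ± 5.48 CPM) and choroid plexus cells (9.05 ± 1.91 CPM) were below the 28.8 ± 6.77 CPM of free RNA. Dusp7, its closest relative in the family, had 56.5, 76.5, 67.7 and 61.4 CPM in EC and 28.9, 25.7, 53.4 and 51.6 CPM in microglia, with no overlap between these classes. Pericytes overlapped microglia at 29.4 ± 13.2 CPM, and the means of the other tested classes were below the 15.9 ± 4.13 CPM of free RNA.

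Dusp16, which targets JNK and p38, had 64.9, 47.7, 78.2 and 50.4 CPM in microglia, 51.1, 62.9, 52.2 and 34.4 CPM in pericytes and 45.8, 47.1, 25.1 and 27.8 CPM in EC. Neighbours in this order overlapped. Dusp10, which shares these targets, was highest among the tested classes in T cells (68.1, 89.2, 30.6 and 13.5 CPM) and ependymal cells (49.1, 26.5, 27.7 and 13.1 CPM), with 15 and 28 UMIs in all. Every other tested class had a mean Dusp10 level under 9 CPM, and EC and microglia were near the 1.96 ± 0.356 CPM of free RNA.

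Each class was then compared with the mean of the other 7 in edgeR's quasi-likelihood test on UMIs summed per library and class, at a Benjamini-Hochberg adjusted p under 0.05. Of 6 genes with enough UMIs in 8 classes, 27 of 48 contrasts passed, 18 higher and 9 lower. Without Dusp2, whose reference classes were largely at 0 and whose fitted fold changes are therefore not given, 24 of 40 passed, 15 higher and 9 lower. Over all 8603 genes tested, 49.2% passed in EC, 59.4% in microglia, 26.8% in pericytes, 39.2% in arterial SMC, 37.7% in astrocytes, 63.9% in choroid plexus cells, 47.0% in ependymal cells and 32.5% in T cells. Genes called higher made up 32.9%, 37.9%, 16.3%, 24.5%, 21.6%, 41.0%, 28.9% and 11.3% in the same order of classes, and genes called lower 16.3%, 21.5%, 10.5%, 14.6%, 16.1%, 22.9%, 18.1% and 21.2%.

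The log2 fold change of Dusp1 was 1.63 ± 0.14 (SE) in microglia (edgeR adjusted p = 8.98e-15), 0.90 ± 0.16 in ependymal cells, 0.85 ± 0.15 in EC and 0.51 ± 0.16 in arterial SMC. It was -2.67 ± 0.26 in astrocytes and -1.38 ± 0.25 in T cells, where the median over all genes was itself -0.71. For Dusp5 it was 5.62 ± 0.29 in T cells (edgeR adjusted p = 2.89e-22) and 1.15 ± 0.26 in microglia, and -1.57 ± 0.45 in EC and -2.55 ± 0.96 in astrocytes. The EC call of Dusp5 was lost without CSD 2 (-0.73, adjusted p = 1) and without HC 2 (-0.90, adjusted p = 1), and the astrocyte call, which rests on 2 UMIs, was lost under 6 of 8 alternatives, with values from -7.44 to -1.53. The arterial SMC call of Dusp1 was lost without HC 2 (0.42, edgeR adjusted p = 0.0804).

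The cytoplasmic members Dusp6 and Dusp7 had higher levels in EC and microglia and lower levels in the 2 epithelial classes of the ventricles. The log2 fold change of Dusp6 was 1.99 ± 0.12 in EC (edgeR adjusted p = 4.08e-20), 2.07 ± 0.12 in microglia and 0.89 ± 0.24 in astrocytes, and that of Dusp7 was 2.70 ± 0.21 in EC (edgeR adjusted p = 1.74e-16), 2.21 ± 0.22 in microglia and 1.32 ± 0.48 in pericytes. In choroid plexus cells Dusp6 was at -2.01 ± 0.18 and Dusp7 at -2.12 ± 0.45, and in ependymal cells they were at -2.31 ± 0.32 and -2.99 ± 0.81. Dusp16 was higher in microglia (2.09 ± 0.18), pericytes (1.26 ± 0.40) and EC (0.91 ± 0.22). The pericyte calls were lost without CSD 2 (edgeR adjusted p = 0.231 for Dusp7 and 0.144 for Dusp16). Dusp6 was also called lower in arterial SMC. That call was lost without the filter on low counts (-0.52, edgeR adjusted p = 0.16) and with at least 1000 UMIs. It was also lost with CSD 1, CSD 2 or HC 1 left out. The ependymal value of Dusp7 rests on 2 UMIs, and its call was lost under the stricter gate (-1.79, edgeR adjusted p = 0.146). So was the astrocyte call of Dusp6 (0.68, edgeR adjusted p = 0.0597).

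**Figure D2:**
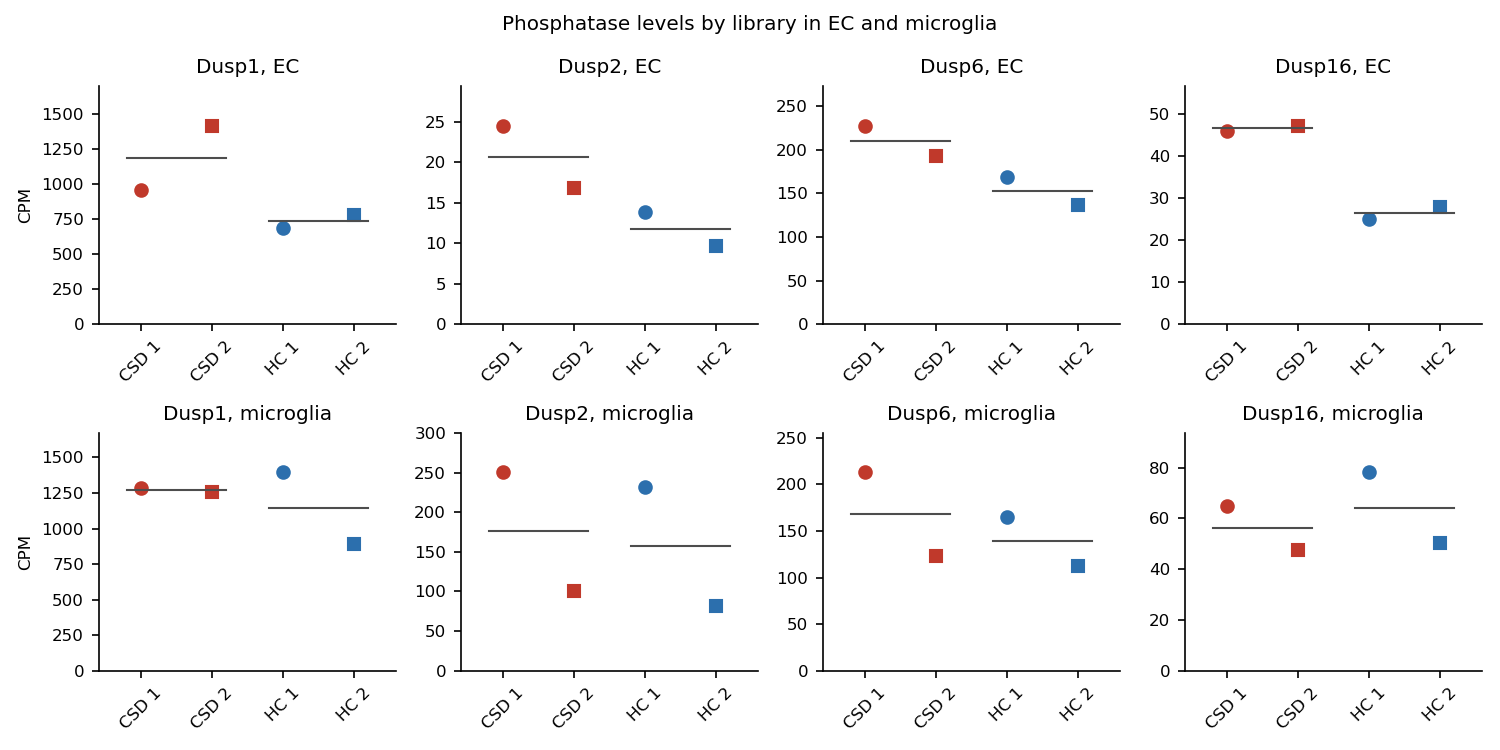
Levels of Dusp1, Dusp2, Dusp6 and Dusp16 (CPM) in EC and microglia, with 1 point per library (red, CSD; blue, HC). Dusp2 and Dusp16 were lower in EC than in microglia with no overlap, and the ranges of Dusp1 and Dusp6 overlapped between these classes.

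EC and microglia, the classes with most cells, were compared directly within libraries. Of 6 members tested, 4 were called lower in EC and none higher, while 33.1% of all 10462 genes were lower, 32.4% higher and 65.5% changed in either direction. The log2 fold change of EC over microglia was -3.57 ± 0.20 (SE) for Dusp2 (edgeR adjusted p = 5.45e-09), -2.35 ± 0.21 for Dusp5 (3.83e-07) and -1.02 ± 0.21 for Dusp16 (edgeR adjusted p = 7.71e-04), each lower in 4 of 4 libraries. For Dusp16 the classes were nearly level in CSD 2 (47.1 CPM in EC against 47.7 CPM in microglia). Dusp1 was at -0.67 ± 0.21 (edgeR adjusted p = 0.0125), lower in 3 of 4 libraries, and its call was lost without HC 1 (-0.47, adjusted p = 0.0985). For Dusp6 the fitted change was -0.04 ± 0.14 with a 95% interval from -0.35 to 0.27, although its CPM was higher in EC in 4 of 4 libraries, so that its direction depended on the scaling of the libraries. Dusp7 was at 0.47 ± 0.20, higher in EC in 4 of 4 libraries, and stood at the threshold (edgeR adjusted p = 0.051).

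The other genes of the pathway were read against the same share of 65.5% of all genes called in either direction. Of 9 MAP kinases tested, 6 were called, near that share, and 4 of them were higher in EC, among them Mapk12 (5.45 ± 0.28), a p38 isoform, and Mapk9 (0.72 ± 0.16), a JNK. Mapk6 (-1.73 ± 0.15) and Mapk14 (-1.59 ± 0.18), the main p38 gene, were the 2 called lower. Of 7 MAP kinase kinases 4 were called, all lower, with Map2k1 at -1.86 ± 0.14, Map2k3 at -1.81 ± 0.17 and Map2k2 at -0.92 ± 0.14. Of 8 kinases that act downstream, all were called, 7 lower, such as Mapkapk2 (-2.45 ± 0.16), and Rps6ka3 higher (1.22 ± 0.15), where 33.1% of all genes were lower and 32.4% higher.

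Among 14 feedback inhibitors and ETS-family targets of the ERK pathway, 3 were called higher in EC and 8 lower. The 3 were the Sprouty genes Spry4 (3.91 ± 0.47), Spry2 (2.97 ± 0.38) and Spry1 (0.75 ± 0.18), inhibitors of receptor signalling to ERK, while the transcription factor genes Etv5 (-4.11 ± 0.22) and Myc (-6.33 ± 0.42) and the Ras regulator Nf1 (-1.58 ± 0.17) were lower. Of 10 other dual-specificity phosphatase genes, 4 were higher, with Dusp23 at 3.38 ± 0.23, Dusp3 at 1.58 ± 0.14 and Dusp22 at 1.21 ± 0.18, and 2 were lower, Dusp18 (-1.68 ± 0.23) and Dusp12 (-1.15 ± 0.18). Of 19 MAP kinase kinase kinases, 4 were higher and 8 lower, and of 22 immediate-early genes 1 was higher and 14 lower. Counted in either direction, the shares called among the kinase kinase kinases, the immediate-early genes and the other phosphatases were near that of all genes. By direction the immediate-early genes were mostly lower in EC, where 33.1% of all genes were lower and 32.4% higher. The median log2 fold change was -0.53 over the MAP kinase kinases, -1.47 over the downstream kinases, -0.80 over the feedback list and -0.94 over the immediate-early genes. It was 0.11 over the kinase kinase kinases and 0.14 over the other phosphatases, against 0.01 over all genes.

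The effect of CSD was compared with HC in each class and in arterial, capillary and venous EC. None of 37 pairs of a member and a class passed in edgeR at an adjusted p under 0.05, and 10 had an unadjusted p under 0.05. DESeq2 called 2, Dusp1 in EC and Dusp1 in capillary EC. It gave no adjusted p for Dusp2, Dusp5 and Dusp16 in EC or for Dusp2, Dusp7 and Dusp16 in capillary EC. These pairs were therefore not assessed by it, and the shares given next are those of edgeR only. Over all genes, 0.0802% were called in EC, 0.187% in capillary EC, 0.0% in microglia, T cells, arterial SMC and ependymal cells, 0.13% in choroid plexus cells, 0.039% in pericytes, 0.286% in astrocytes, 0.0617% in arterial EC and 2.11% in venous EC. An unadjusted p under 0.05 was reached by 8.2% of genes in EC, 8.61% in capillary EC, 1.22% in microglia, 6.14% in T cells, 2.99% in arterial SMC, 4.07% in ependymal cells, 3.14% in choroid plexus cells, 4.68% in pericytes, 2.17% in astrocytes, 5.73% in arterial EC and 12.3% in venous EC. All these comparisons share the 4 libraries, and the EC subtypes share cells with EC.

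In EC, 4 of 6 members tested had both CSD libraries above both HC libraries, where 14.2% of all genes did. These were Dusp1 (956 and 1417 CPM in CSD against 686 and 781 CPM in HC), Dusp2 (24.5 and 16.8 against 13.9 and 9.62 CPM), Dusp6 (228 and 193 against 168.5 and 137 CPM) and Dusp16 (45.8 and 47.1 against 25.1 and 27.8 CPM). For Dusp16 the libraries of a group lay close together, whereas Dusp1 was highest in CSD 2 and Dusp2 and Dusp6 were highest in CSD 1. Dusp5 and Dusp7 overlapped. In these sums, more expressing cells and more RNA per cell cannot be told apart.

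The log2 fold change in EC was 0.76 ± 0.20 (SE) for Dusp1, with a 95% interval from 0.31 to 1.21 (edgeR adjusted p = 0.282). It was 0.88 ± 0.18 for Dusp16 (0.47 to 1.29, edgeR adjusted p = 0.168), 0.53 ± 0.18 for Dusp6 (0.12 to 0.94, edgeR adjusted p = 0.469) and 0.87 ± 0.33 for Dusp2 (0.11 to 1.64, edgeR adjusted p = 0.562). These 4 made up the EC members with an unadjusted p under 0.05, a level that 8.2% of all genes reached. Dusp7 was at 0.11 ± 0.18 and Dusp5 at -0.14 ± 0.51, and the median over the 6 members was 0.64 against 0.00 over all genes. DESeq2 gave 0.75 for Dusp1 with an adjusted p of 0.0226, and the share of all genes that DESeq2 called is not given here.

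Leaving out a library left 1 library in its group, assumed to vary like the other group, and only fold changes of the members are given here. Over all genes, the number of calls in EC also moved with the library left out. Without CSD 1, Dusp1 was at 1.01, Dusp16 at 0.89, Dusp6 at 0.39 and Dusp2 at 0.57. Without CSD 2, the library that stood apart, Dusp1 was at 0.48, Dusp16 at 0.89, Dusp6 at 0.67 and Dusp2 at 1.15. Without HC 1, Dusp1 was at 0.69, Dusp16 at 0.84, Dusp6 at 0.71 and Dusp2 at 1.19. Without HC 2 they were at 0.84, 0.94, 0.37 and 0.62 in the same order. The direction of these 4 genes was the same in every case.

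**Figure D3:**
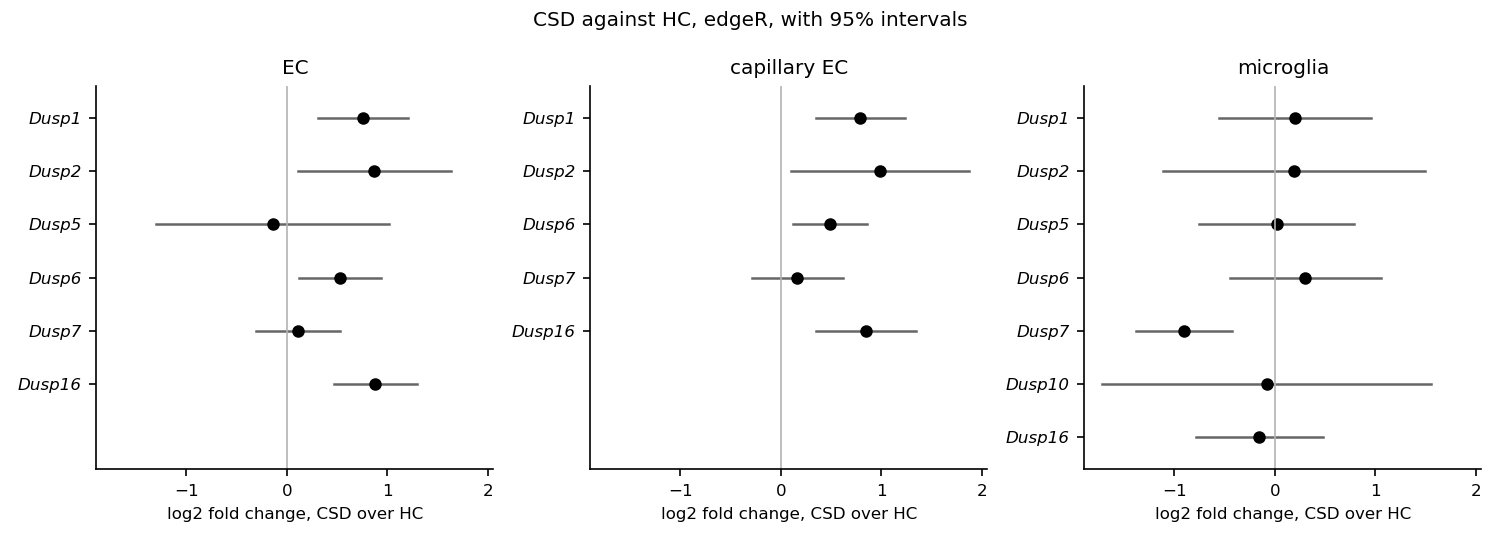
Log2 fold change of CSD over HC for each member tested in EC, capillary EC and microglia; points are edgeR estimates and lines their 95% intervals. In EC the intervals of Dusp1, Dusp2, Dusp6 and Dusp16 lay above 0, and in microglia that of Dusp7 lay below 0 (-1.39 to -0.42), while no adjusted p was under 0.05.

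Capillary EC, which made up most EC, showed the same 4 members with both CSD libraries higher, out of 5 tested and against 15.7% of all genes. Dusp1 had 877 and 1391 CPM in CSD against 593 and 752 CPM in HC, Dusp6 had 228 and 223.5 against 184 and 147 CPM, and Dusp16 had 45.5 and 48.5 against 25.7 and 28.0 CPM. Fold changes were close to those of EC as a whole, from which these cells are drawn, with Dusp1 at 0.79 ± 0.21 (edgeR adjusted p = 0.186) and Dusp16 at 0.85 ± 0.23 (edgeR adjusted p = 0.201). Dusp6 was also higher in both CSD libraries in arterial EC (139 and 194 against 72.7 and 87.8 CPM, from 38 UMIs) and in pericytes (115 and 98.9 against 62.6 and 57.3 CPM, from 47 UMIs), where 17.8% and 14.9% of genes showed that order.

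In microglia the inducible members did not follow the groups. Dusp1 had 1287 and 1257 CPM in CSD and 1396 and 891 CPM in HC, with a log2 fold change of 0.20 ± 0.31 (SE, 95% interval -0.55 to 0.95). Of 7 members tested, 1 had both CSD libraries lower, which is near the 13.6% of all genes with that order. This was the cytoplasmic member Dusp7, with 28.9 and 25.7 CPM in CSD against 53.4 and 51.6 CPM in HC. Its log2 fold change was -0.90 ± 0.20, with an edgeR adjusted p of 0.9999 and an unadjusted p of 0.00327, and 1.22% of all genes had an unadjusted p under 0.05. It stayed between -0.92 and -0.87 with any library left out. The other 5 members had fold changes from -0.15 ± 0.27 (Dusp16) to 0.30 ± 0.31 (Dusp6).

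The difference between the CSD effects of EC and microglia was tested for 6 members, and none passed, with 0.0% of all genes passing. At an unadjusted p under 0.05, which 3.03% of genes reached, were Dusp16 (1.01 ± 0.32) and Dusp7 (0.99 ± 0.29), both with an edgeR adjusted p of 1. In T cells Dusp2 and Dusp5 were lower in both CSD libraries (477 and 346 against 566 and 525 CPM, and 460.0 and 312 against 657 and 552 CPM), as were 21.2% of all genes, with changes of -0.37 ± 0.35 and -0.62 ± 0.36. In the same T cell class the markers of neutrophils and Ccr2+ monocytes were lower in CSD (357 to 664 against 754 to 810.3 CPM over 10 genes, 7 of them at 0, S100a8, S100a9 and Ly6g included), as were those of neurons (66.9 to 68.1 against 91.7 to 121 CPM) and venous EC (44.6 to 51.1 against 76.4 to 148 CPM), and their part was not tested. In choroid plexus cells Dusp5 had 7.16 and 8.72 CPM in CSD against 4.17 and 3.97 CPM in HC, a change of 0.87 ± 0.35 (unadjusted p = 0.0162 in edgeR, adjusted p = 0.9995), and Dusp6 had 10.8 and 10.5 against 8.01 and 6.89 CPM. Of 6 members tested there, these 2 had both CSD libraries higher, where 14.5% of all genes did. Dusp10 had both CSD libraries lower, at a mean level of 2.25 CPM in that class, and the share of all genes with that order is not given here.

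Other measures moved with the groups in EC. The summed level of 22 immediate-early and dissociation-induced genes was 22447 and 26861 CPM in CSD against 16879 and 18149 CPM in HC, and that of 20 glucocorticoid-responsive genes was 6694 and 7604 against 4429 and 4220 CPM. All 22 and all 18 members tested of these lists had positive fold changes, with medians of 0.59 and 0.78, and the calls were Lcn2 (5.42 ± 0.40, edgeR adjusted p = 0.00308) and Cdkn1a (1.55 ± 0.16, edgeR adjusted p = 0.02). Fkbp5, a feedback gene of the glucocorticoid receptor, had 47.4 and 36.4 CPM against 16.5 and 13.9 CPM, Tsc22d3 had 932 and 989 against 570.0 and 608 CPM, and Fos had 2583 and 2693 against 2041 and 2218 CPM. Jun and Egr1 overlapped between the groups in EC. The glucocorticoid-responsive sum was not particular to EC. In microglia it was 6180 and 6596 CPM in CSD against 4977 and 5120 CPM in HC. It was also higher in both CSD libraries in pericytes, choroid plexus cells and T cells, and overlapped in arterial SMC, astrocytes and ependymal cells. The immediate-early sum was higher in both CSD libraries in astrocytes too, and overlapped in microglia and the remaining tested classes outside EC.

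Of 18 lists of markers, of other cells and of the EC subtypes, 14 overlapped between the groups in EC. Oligodendrocyte markers were higher in CSD (1173 to 1424 against 825 to 832 CPM over 7 genes), almost all of it Mal (1400 and 1138 against 801 and 782 CPM), while Mog, Ermn, Mag, Mobp and Cldn11 were at 0 to 9.33 CPM. Venous EC markers (1073 to 1346 against 667 to 897 CPM) and neutrophil markers (5.13 to 13.3 against 2.67 to 3.21 CPM, with Ly6g, Mmp9, Ccr2 and Chil3 at 0) were higher, and T cell markers were lower at no more than 2.67 CPM. In microglia, markers of pericytes (19.5 to 21.4 against 33.7 to 63.4 CPM), fibroblasts, T cells and fenestrated EC were lower in CSD and those of oligodendrocyte precursors higher. The part of these in the levels of the phosphatase genes was not tested.

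The rest of the pathway in EC did not pass with CSD. Among 9 MAP kinases, 7 MAP kinase kinases, 17 MAP kinase kinase kinases, 8 downstream kinases, 13 feedback genes and 10 other dual-specificity phosphatases, none was called in edgeR, and 1, 0, 2, 0, 3 and 1 of them had an unadjusted p under 0.05. Their medians were 0.17, 0.02, 0.14, 0.08, 0.39 and 0.06 against 0.00 over all genes. In capillary EC 1 of 16 MAP kinase kinase kinases was called, Map3k6 (1.34 ± 0.21, edgeR adjusted p = 0.0201). In microglia none of the same lists held a called gene, and the feedback list had a median of -0.04.

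Within EC, arterial and capillary cells differed in Dusp2. Arterial EC had 53.6, 58.1, 63.6 and 37.6 CPM of Dusp2 (18 UMIs) and capillary EC 15.5, 14.4, 8.86 and 6.62 CPM (61 UMIs). The ranges were apart, and all 4 libraries showed the order. The capillary level was below that of free RNA in CSD 1 (23.5 CPM) and HC 1 (20.2 CPM). Dusp2 was under the count filter of this comparison and, without that filter, had a log2 fold change of 2.01 ± 0.50 (SE, edgeR adjusted p = 0.00334). Dusp6 went the other way, with 139, 194, 72.7 and 87.8 CPM in arterial EC against 228, 223.5, 184 and 147 CPM in capillary EC, lower in 4 of 4 libraries, and a change of -0.76 ± 0.29 (edgeR adjusted p = 0.0678). Venous EC had 225, 0, 119 and 75.7 CPM of Dusp6 and a change of -0.92 ± 0.37 (edgeR adjusted p = 0.134). With the filter none of 2 members tested passed in either subtype, against 20.7% of genes in arterial and 9.98% in venous EC. Without it both Dusp6 changes passed (edgeR adjusted p = 0.00784 and 0.00735). More genes were called over all without the filter, 561 against 359 in arterial EC and 358 against 173 in venous EC. Their share of the genes tested without the filter is not given here.

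Warm enzymatic dissociation is known to induce immediate-early genes, transcripts that rise within minutes of a stimulus. Within each library, EC and microglia were split into the 25% of cells with the largest share of UMIs in 7 such genes (Fos, Fosb, Jun, Junb, Egr1, Ier2 and Atf3, no Dusp gene among them) and the other cells. The split cuts a continuous range, and 2.94% to 6.51% of EC and 11.7% to 14.6% of microglia lay within 10% of the cut. In EC the high cells were also deeper, with median UMIs of 1509 against 1120, 2058 against 1292, 2032 against 1347 and 1178 against 798, whereas in microglia the order of depth varied between libraries.

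In EC, Dusp1, Dusp2, Dusp5 and Dusp6 were higher in the immediate-early-high cells of every library. Dusp1 had 616, 796, 273 and 333 CPM in the other cells of CSD 1, CSD 2, HC 1 and HC 2 and 1667, 2438, 1376 and 1609 CPM in the high cells, a ratio of 2.71 to 5.04. Dusp6 had 149.8, 127, 68.2 and 77.4 CPM in the other cells and 389.5, 301, 336 and 247 CPM in the high cells. Dusp2 had 13.4, 10.5, 2.56 and 3.29 CPM against 47.7, 27.2, 32.7 and 21.3 CPM. For these 3 genes the ranges of the 2 sets of cells were apart, and the same held for Dusp5 (0.750 to 6.31 CPM against 8.64 to 16.8 CPM). Dusp5 had 12 UMIs in the other cells and 34 in the high cells. Its level in the other cells was below the free RNA of each library (1.55 to 6.67 CPM).

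Of 5 members tested in EC, 3 were called higher in edgeR, where 5.51% of all genes were and 8.26% changed in either direction. The log2 fold change was 1.99 ± 0.10 (SE) for Dusp1 (edgeR adjusted p = 8.19e-18), 1.71 ± 0.12 for Dusp6 (3.96e-14) and 2.18 ± 0.29 for Dusp2 (edgeR adjusted p = 6.23e-07). Dusp5, tested only without the filter on low counts, was at 2.42 ± 0.47 (edgeR adjusted p = 2.78e-05). Over all genes, 721 were called without that filter and 685 with it. Dusp7 was at 0.15 ± 0.15 and Dusp16 at -0.43 ± 0.21, with adjusted p of 0.643 and 0.243, and Dusp16 was higher in the other cells in 3 of 4 libraries.

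**Figure D4:**
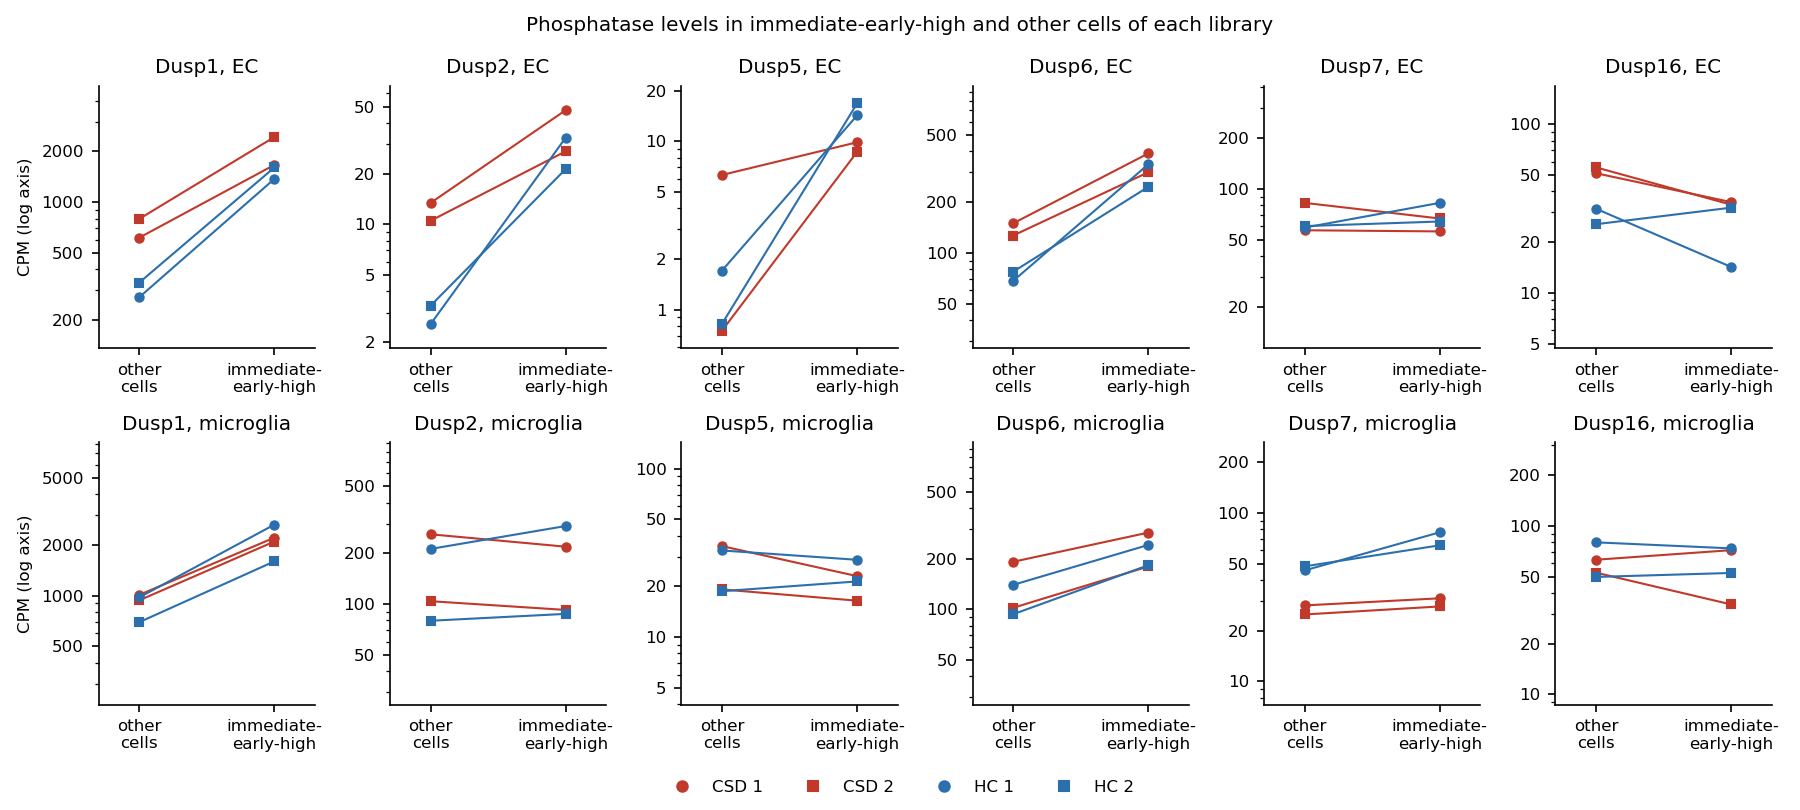
Levels of 6 phosphatase genes (CPM, log axis) in the immediate-early-high 25% of cells and in the other cells of each library, joined by a line (red, CSD; blue, HC; circles, libraries numbered 1; squares, libraries numbered 2). In EC the lines of Dusp1, Dusp2, Dusp5 and Dusp6 rise in all 4 libraries, and in microglia those of Dusp1, Dusp6 and Dusp7 do.

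In microglia Dusp1 rose from 1011, 939, 978 and 697 CPM to 2212, 2098, 2643 and 1599.5 CPM, and Dusp6 from 192, 102, 139.8 and 93.6 CPM to 286, 179.8, 241 and 183 CPM. Both were higher in 4 of 4 libraries, with log2 fold changes of 1.15 ± 0.07 (SE, edgeR adjusted p = 6.23e-21) and 0.67 ± 0.09 (edgeR adjusted p = 4.31e-09), and they were 2 of 6 members called where 4.53% of genes were called higher and 10.9% changed. Dusp2 was unlike EC, with 259.8, 104, 213 and 79.7 CPM in the other cells and 219, 92.4, 291 and 87.6 CPM in the high cells, higher in 2 libraries and lower in 2, and a change of -0.03 ± 0.10. Dusp5 was at -0.34 ± 0.21, Dusp7 at 0.33 ± 0.16 and Dusp16 at -0.17 ± 0.14, none of them passing, although Dusp7 was higher in 4 of 4 libraries.

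The difference between the immediate-early effects of EC and microglia was tested as an interaction added after the data were seen. It passed for 4 of 6 members, all with the larger effect in EC, against 5.48% of all genes in that direction and 6.85% in either. The differences on the log2 scale were 2.77 ± 0.51 (SE) for Dusp5, 2.22 ± 0.31 for Dusp2, 1.04 ± 0.15 for Dusp6 and 0.86 ± 0.13 for Dusp1 (edgeR adjusted p from 9.52e-08 for Dusp2 to 6.36e-05 for Dusp5). The Dusp5 value rests in EC on 12 UMIs in the other cells and 34 in the high cells. Fos (2.13 ± 0.15) and Egr1 (1.97 ± 0.14), which defined the split, differed in the same direction.

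In the other EC, outside the immediate-early-high 25%, Dusp1, Dusp2, Dusp6 and Dusp16 also had both CSD libraries above both HC libraries, while Dusp5 and Dusp7 overlapped. The share of all genes with that order was not counted in these cells. Dusp2 in the other EC (13.4, 10.5, 2.56 and 3.29 CPM) was below free RNA (23.5, 5.99, 20.2 and 5.69 CPM) except in CSD 2. Dusp1 in the other EC of HC 1 was level with free RNA (273 against 272 CPM). Dusp1 had 616 and 796 CPM against 273 and 333 CPM there, Dusp6 149.8 and 127 against 68.2 and 77.4 CPM, and Dusp16 51.2 and 55.5 against 31.5 and 25.5 CPM. In the high EC Dusp1 had 1667 and 2438 against 1376 and 1609 CPM, and Dusp16 had 34.5 and 33.3 against 14.2 and 32.0 CPM. Dusp6 (389.5 and 301 against 336 and 247 CPM) and Dusp2 (47.7 and 27.2 against 32.7 and 21.3 CPM) overlapped in the high EC. Dusp5 was lower in CSD in those cells (9.86 and 8.64 against 14.2 and 16.8 CPM). The immediate-early genes themselves were higher in both CSD libraries in the same other EC, with 961 and 729 against 309.5 and 430.4 CPM of Fos, 1496 and 1535 against 738 and 1059.9 CPM of Jun, and 561 and 304 against 239 and 197.5 CPM of Egr1. The cut also differed between the groups, at 1.55% and 1.49% of UMIs in CSD and 1.02% and 1.07% in HC. These levels were not tested, nor was the part of the immediate-early genes in them.

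Genes of the ERK feedback list accompanied the phosphatases in the high EC, with 4 of 11 called higher and none lower. Over all genes, 5.51% were called higher in the high EC and 8.26% changed in either direction. They included Ier3 (1.77 ± 0.11), Phlda1 (2.09 ± 0.23) and Spry1 (0.90 ± 0.14). The MAP kinases had 0 of 9 called, and Map2k3 (0.72 ± 0.17), which activates p38, was the only 1 of 7 MAP kinase kinases. In the high microglia none of 13 feedback genes was higher and Ccnd1 was lower (-0.35 ± 0.11). There 2 of 7 other dual-specificity phosphatases were higher, Dusp18 (0.80 ± 0.19) and Dusp12 (0.63 ± 0.19), as was Mapk8 (0.54 ± 0.15), a JNK. Over all genes, 4.53% were called higher in the high microglia and 10.9% changed in either direction.

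A second split of microglia, by the chemokine and activation genes Ccl3, Ccl4, Il1a and Gpr84, was also added after the data were seen, and 5.42% to 7.53% of cells lay within 10% of its cut. Dusp16 had 94.9, 56.1, 86.0 and 69.3 CPM in the chemokine-high 25% against 54.7, 43.8, 75.2 and 44.1 CPM in the others. It was higher in 4 of 4 libraries with overlapping ranges, and was the 1 of 6 members called, where 2.08% of genes were called higher and 2.85% changed. Its log2 fold change was 0.50 ± 0.13 (SE, edgeR adjusted p = 0.0125), and the call was lost without CSD 1 (0.37, adjusted p = 0.344) and without HC 2 (0.46, adjusted p = 0.0762). Dusp2 was at 0.25 ± 0.09 (edgeR adjusted p = 0.119) and Dusp1 at -0.10 ± 0.04.

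The genes most like each member were found by Pearson's correlation of mean log2(CPM + 10) over the 8 classes, among 10823 genes with at least 20 CPM in some class. These are descriptions over 8 points that come from the same 4 libraries. They were Kat8 (0.977), Commd10 and Anapc2 for Dusp1, Pcna (0.984), Klk8 and Snhg12 for Dusp2, Mx1 (0.978), Gm9493 and Cst7 for Dusp5, and Mon2 (0.976), Zc3h7a and Prr14 for Dusp6. For Dusp7 they were Zfand2a (0.982), Tbc1d20 and Ints9, for Dusp10 Areg (0.957), Traf1 and Ripor2, and for Dusp16 Snx6 (0.974), Epha2 and Ccdc115. Dusp4 was below the limit on level. Among the members, the most alike were Dusp6 and Dusp7 (0.91), followed by Dusp2 and Dusp5 (0.85).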

How the data were processed

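Single-cell libraries were made with 10x Genomics 3′ v3.1 chemistry. The authors deposited UMI counts per gene and barcode, unfiltered, after alignment to mm10 (GRCm38) with Cell Ranger, for which the sources give different versions. From these counts, cells with at least 500 UMIs, 250 genes and at most 25% mitochondrial UMIs were kept and assigned to 15 classes by markers (at least 3 detected, and a lead of 1.5 times over the next class). EC subtypes needed 2 markers. Cells below these limits were left out, but cells with some markers of a second class remained, and no doublet caller was run. Median depth was 1408 to 2357 UMIs per cell, and the floor for a gene at 0 was 3 UMIs of a class, counting error only.

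Counts were summed per library and class and tested with edgeR 4.0.16 in R 4.3.3 (filterByExpr, TMM scaling, quasi-likelihood F test, Benjamini-Hochberg adjustment over all genes tested), with the SE taken from the fold change and F. DESeq2 1.42.0 was an alternative. With 2 pools per group, the p-values of CSD against HC rest on the spread between pools, with dispersions moderated across genes. The other comparisons carried library as a block, or class and library for the interaction of the immediate-early split. Their p-values rest on how differences within libraries vary over the 4 libraries, also with moderated dispersions. The 8 classes were fitted together, so the spread behind each class contrast is pooled over all 8 classes. The EC subtypes were likewise fitted together, and so were EC and microglia in the interactions. The test was run first on simulated counts. Members, gene lists and tests were chosen with earlier results of these data known. The text names the 8 members, up to 3 called genes per list and direction, 3 genes most like each member, and Fos, Jun, Egr1, Tsc22d3 and Fkbp5. A gene that this rule named is not reported here. Gene positions came from GENCODE vM21. Alternatives were RLE scaling, no filter, a replicate block, 1 library left out, at least 1000 UMIs, a stricter gate, a complexity minimum and removal of the deepest cells.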

Additional observations from a re-analysis of the deposited data

Results flagged for a closer look

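The effect of the immediate-early split differed between EC and microglia for 4 phosphatase genes by an interaction term in edgeR. The difference, EC minus microglia on the log2 scale, was 2.77 for Dusp5, 2.22 for Dusp2, 1.04 for Dusp6 and 0.86 for Dusp1. For Dusp5 it rests in EC on 12 UMIs in the other cells and 34 in the high cells. In EC all 4 genes were higher in the immediate-early-high cells of 4 of 4 libraries, whereas in microglia Dusp2 was higher in 2 of 4 and Dusp5 in 1 of 4. Fos and Egr1, which defined the split, differed too (2.13 and 1.97), and so did the depth of the 2 sets of cells in EC. The part of these in the difference was not tested. With groups of 2 libraries, no group was large enough for a test of outlying libraries.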

How the results depend on the processing

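Of 41 called results, 308 of 332 alternative values stayed called in the same direction and 24 no longer passed. Of 83 results that were not called, 770 of 805 alternative values stayed uncalled, 35 passed in the direction reported and 64 turned sign without passing. No called result reversed. The 0 calls of CSD against HC became 2 with DESeq2, 3 without the filter on low counts, 1 with the replicate block, 1 with the stricter gate and 0 to 5 with 1 library left out. The call of the block and of the stricter gate was Dusp1 in capillary EC (edgeR adjusted p = 0.0341 and 0.0321). Replicate numbers are shared in the labels as numbers only, and the deviations of libraries with the same number correlated at 0.06 in EC and 0.38 in microglia. The 0 calls of arterial and venous against capillary EC became 3 without the filter, 1 with at least 1000 UMIs and 0 to 1 with 1 library left out. The single chemokine-split call became 0 with at least 1000 UMIs and 0 to 1 with 1 library left out. Dusp7 in EC against microglia passed under 6 alternatives (edgeR adjusted p from 0.0132 to 0.0473). Over all genes, the 8 calls of CSD against HC in EC ran from 5 with the replicate block to 562 without CSD 1, and the 17 in capillary EC from 5 to 323. Depth was limiting for Dusp4 and Dusp10 in all classes, and for most members in T cells and arterial and venous EC. The causes of these changes were not tested.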
